A study of Mus musculus with 8 samples.

Results

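The 10 genes described here are the hosts of the microRNAs miR-15a, miR-15b and miR-16 (Dleu2 and Smc4) and 8 genes of the machinery that makes and uses microRNAs (Drosha, Dgcr8, Xpo5, Dicer1, Ago1, Ago2, Ago3 and Tnrc6a). They were chosen by name from 38293 gene identifiers, and all 10 passed the filter on low counts, among 13972 genes tested. The samples were left ventricles of mice of the strain C57BL/6J with an ischemia-reperfusion injury of the heart, made by closing a coronary artery (LAD) for a time and opening it again. Every heart had 2 injections of 10 µl of the hydrogel UPy-PEG, a supramolecular polymer gel, and was taken 3 days later. In 4 libraries the gel held no drug (hydrogel group) and in 4 it carried antimiR-195, an inhibitor directed against miR-195. There was no uninjured or uninjected group, so each comparison is between drug-loaded and drug-free gel in injured hearts. Neither the age and sex of the mice nor whether each library came from its own animal is given in the sources used here, so the tests measure the spread between these libraries. In bulk tissue, fewer cells of a type and less RNA per cell cannot be told apart.

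MicroRNAs are cut from longer transcripts. In the nucleus Drosha and its RNA-binding partner DGCR8 release a hairpin, exportin 5 (Xpo5) carries it to the cytoplasm, and Dicer cuts it to the mature length. An Argonaute protein holds the mature strand and pairs its seed, the bases near the 5′ end, with sites in messenger RNAs, and a TNRC6 protein bound to Argonaute recruits the enzymes that shorten the poly(A) tail and remove the cap. miR-195 belongs to the miR-15 family, whose members share a seed and in the heart are known for restraining cardiomyocyte division after birth. Relatives of miR-195 lie in introns of 2 of the genes here.

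The mature strands show what miR-195 shares with the microRNAs inside Dleu2 and Smc4 (RefSeq, GRCm38.p6; 5′ to 3′; capitals mark the seed, bases 2 to 8).
miR-195a-5p: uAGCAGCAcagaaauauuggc
miR-16-5p: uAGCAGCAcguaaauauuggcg
miR-15a-5p: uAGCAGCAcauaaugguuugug
miR-15b-5p: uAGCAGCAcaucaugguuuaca
miR-497a-5p: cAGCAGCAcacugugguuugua
miR-322-5p: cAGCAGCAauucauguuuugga
miR-503-5p: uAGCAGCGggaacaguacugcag
The first 6 have the same seed, and miR-503-5p has another seed. Of the 21 positions of miR-195a-5p, miR-16-5p is identical at 19, miR-15a-5p at 15 and miR-15b-5p at 14, counted from the 5′ end without gaps. miR-16-5p is thus the closest of the 3 host-borne sequences, and it is made from both hosts.

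In GRCm38, Dleu2 is a non-coding gene on chromosome 14 at 61602839 to 61682373, minus strand. The precursor Mir15a (61632027 to 61632110) lies in an intron of all 8 annotated Dleu2 transcripts that span it. Mir16-1 (61631880 to 61631972) is intronic in 8 of 9 such transcripts and touches an exon of 1. Smc4, on chromosome 3 at 69004738 to 69034623, plus strand, holds Mir15b (69009772 to 69009835) and Mir16-2 (69009902 to 69009996) in an intron of all 5 spanning transcripts. Mir195a itself, on chromosome 11 at 70235042 to 70235135, and Mir322 and Mir503 on chromosome X overlapped no other annotated gene in GENCODE M21. Poly(A) RNA libraries count the spliced hosts and hardly the precursors. Mir16-1, Mir15b, Mir16-2 and Mir322 had 0 counts in every library, which allows up to 3 counts each. Mir15a, Mir497b and Mir503 had at most 1, and Mir195a at most 2. The host values below are therefore levels of the host transcripts, not of the microRNAs.

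Total gene counts were 16872968 to 22751753 per library. Libraries differed in how their values depended on gene length: the slope of a library's deviation in log2 CPM (counts scaled to a common library total) on log2 gene length ran from -0.21 per doubling in antimiR-195 replicate 2 to 0.15 in antimiR-195 replicate 3. AntimiR-195 replicate 2 also had the largest share of alignments to more than 1 place, 47.8% against 42.1% to 44.5% in the others. All 5 cardiomyocyte markers (Myh6, Tnnt2, Actc1, Ryr2, Pln) were present in every library, with a summed level of 47201 to 53554 CPM in the hydrogel and 48812 to 53457 CPM in the antimiR-195 group. The 5 macrophage and leukocyte markers summed to 1146 to 1615 and 989 to 1579 CPM, the 5 fibroblast markers to 3392 to 6178 and 4752 to 6237 CPM, and the 5 endothelial markers to 492 to 659 and 471 to 665 CPM. The 6 markers of B and T cells reached at most 5.36 CPM. The 4 atrial markers reached 39.8 CPM, with Bmp10 at 0 counts throughout.

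Setting the antimiR-195 group against the hydrogel group asks whether the host transcripts and the machinery were at other levels when the gel carried antimiR-195. Whether miR-195 was inhibited in these hearts was not measured in the values used here. None of the 10 genes passed the threshold of 0.05 on p adjusted over all genes tested (edgeR, quasi-likelihood), and each had adjusted p = 0.9999. Over all genes tested the share called was 0%, that is 0 of 13972. At an unadjusted p below 0.05 the share of all genes was 1.27%, 178 genes, and 0 of the 10; DESeq2 and limma-voom also called 0 genes, with 193 and 333 at unadjusted p below 0.05. The log2 fold changes of the 10, antimiR-195 over hydrogel, ran from -0.38 to 0.10, with 7 positive and 3 negative and a median of 0.05. Over all genes tested 7326 were positive and 6646 negative, and the median was 0.01. The groups did not overlap for 1 of the 10, Dleu2, where 1.07% of all genes tested had groups that did not overlap.

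**Figure D1:**
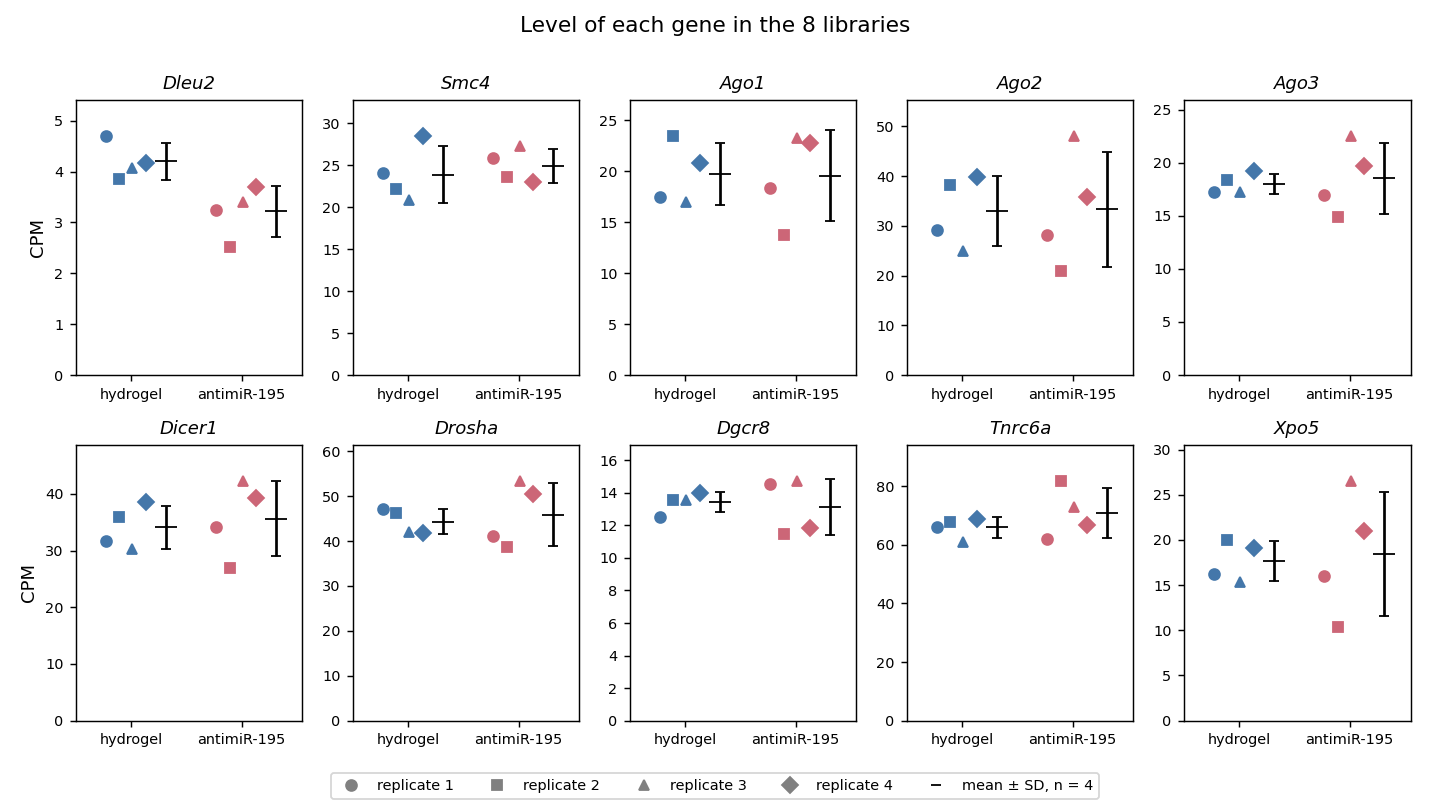
Level of each of the 10 genes in CPM (vertical axis, from 0) in the 4 hydrogel (blue) and 4 antimiR-195 (red) libraries; marker shapes give the replicate and black bars the mean ± SD. The groups overlap in every panel but that of Dleu2, and antimiR-195 replicate 2 (red square) is the lowest library in 8 panels.

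Dleu2, the non-coding host of miR-15a and miR-16, was the least abundant of the 10. Its level was 4.71, 3.86, 4.06 and 4.16 CPM in hydrogel replicates 1 to 4 and 3.25, 2.52, 3.41 and 3.70 CPM in antimiR-195 replicates 1 to 4. Every antimiR-195 library lay below every hydrogel library, with a narrow gap between antimiR-195 replicate 4 and hydrogel replicate 2. The means were 3.22 ± 0.505 and 4.20 ± 0.361 CPM (SD, n = 4 each). On the log2 scale the difference was -0.38 ± 0.18 (SE), with a 95% interval from -0.77 to 0.01, and it did not pass (edgeR, unadjusted p = 0.0526, adjusted p = 0.9999). The counts behind it were small. They summed to 331 in the hydrogel and 226 in the antimiR-195 group. The 65 counts of antimiR-195 replicate 4 have an exact Poisson 95% interval of 2.86 to 4.72 CPM and the 79 of hydrogel replicate 2 one of 3.06 to 4.81 CPM, which cover counting error only, so these neighbours cannot be told apart at this depth. Without antimiR-195 replicate 2, the lowest library, the log2 fold change was -0.29, and with the length trend removed from all libraries it was -0.37. Genes on the opposite strand overlap 6.07% of the annotated exon bases of Dleu2, and the strand setting of the counting is not given in the sources used here, so reads there cannot be told apart.

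Smc4 encodes a core subunit of condensin, the complex that compacts chromosomes for division, besides carrying miR-15b and miR-16 in an intron. Its level was 24.1, 22.2, 20.8 and 28.5 CPM in the hydrogel and 25.8, 23.6, 27.4 and 23.0 CPM in the antimiR-195 libraries. The highest and the lowest library were both in the hydrogel group, and all antimiR-195 values lay between them. The log2 fold change was 0.06 ± 0.13, and its 95% interval, from -0.22 to 0.34, leaves differences of up to 1.27-fold higher and down to 0.860-fold unresolved. Between the 2 hosts Pearson's r of log2 CPM was -0.06 over the 8 libraries, a description without a test.

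Smc4 can be set against its condensin partners Smc2, Ncapd2, Ncapg and Ncaph, which carry no microRNA of the family. By the authors' RPKM (counts scaled for gene length and library total), which allows genes to be compared, Ncapd2 was at 6.70 ± 0.753, Smc4 at 4.86 ± 0.616, Smc2 at 1.65 ± 0.331, Ncaph at 1.36 ± 0.392 and Ncapg at 0.666 ± 0.277 (SD, 8 libraries). The log2 RPKM of Smc4 minus the mean of these 4 was 1.54, 1.48, 1.90 and 1.53 in the hydrogel and 1.28, 1.13, 1.56 and 1.50 in the antimiR-195 libraries. The groups overlapped, and the difference of -0.24 between the means 1.37 ± 0.1996 and 1.61 ± 0.195 did not pass the exact permutation test over the 70 assignments of libraries (two-sided p = 0.2, 0.8 adjusted over the 4 such values tested; the smallest possible p is 0.0286). Across the libraries the log2 CPM of Smc4 went with that of Smc2 (r = 0.90), Ncapd2 (0.75), Ncaph (0.69) and Ncapg (0.42), given as descriptions over 8 libraries that share depth and tissue makeup. Ncapg had the largest difference between groups of these 4, at 0.67 ± 0.28 on the log2 scale with a 95% interval from 0.06 to 1.28 (edgeR, unadjusted p = 0.0343, adjusted p = 0.9999). Its groups overlapped. The 6 markers of dividing cells summed to 53.7 to 103 CPM in the hydrogel and 74.0 to 138 CPM in the antimiR-195 libraries, highest in antimiR-195 replicate 2, where Smc4 was at 23.6 CPM. Their part in the Smc4 values was not tested.

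Drosha and Dgcr8 encode the Microprocessor, the nuclear complex that cuts the hairpin from the primary transcript. Drosha, the RNase, was at 47.1, 46.2, 42.1 and 41.7 CPM in the hydrogel and 41.0, 38.7, 53.3 and 50.4 CPM in the antimiR-195 libraries. The hydrogel libraries lay within the range of the antimiR-195 libraries, in which replicates 3 and 4 were the highest of all 8 and replicates 1 and 2 the lowest. The log2 fold change was 0.05 ± 0.13. Dgcr8, its RNA-binding partner, was at 12.5, 13.6, 13.6 and 14.0 CPM in the hydrogel and 14.6, 11.5, 14.7 and 11.8 CPM in the antimiR-195 libraries, a log2 fold change of -0.03 ± 0.13. Here too the antimiR-195 libraries took both ends of the range, although replicate 4 was now among the lowest. The signs changed when single libraries were left out. Drosha was at -0.0296 without antimiR-195 replicate 3 and -0.00378 without replicate 4, and Dgcr8 at 0.0208 without replicate 2 and 0.0105 without replicate 4.

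The Microprocessor is known to cut a hairpin in the Dgcr8 messenger RNA itself, so the ratio of the 2 transcripts was taken as a value of its own. The log2 ratio of Dgcr8 to Drosha RPKM was -2.21, -2.06, -1.93 and -1.87 in the hydrogel and -1.79, -2.05, -2.15 and -2.39 in the antimiR-195 libraries. The lowest and the highest ratio were both in antimiR-195 libraries, and the means, -2.09 ± 0.247 against -2.02 ± 0.148, differed by less than the spread (exact permutation p = 0.629, adjusted p = 0.8). Without antimiR-195 replicate 4 the difference was 0.0196. Of the Dgcr8 exon bases, 10.7% overlap Trmt2a on the opposite strand, and 6.42% lie in genes on the same strand. These were the largest such shares among the 10 genes, the only ones for which overlap was taken, and the Dgcr8 count is less certain in those bases.

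Xpo5, which exports the hairpin, had the widest range from lowest to highest library, as a fold. It was at 16.3, 19.9997, 15.4 and 19.1 CPM in the hydrogel and 16.0, 10.4, 26.5 and 21.02 CPM in the antimiR-195 libraries. AntimiR-195 replicate 2 was the lowest and replicate 3 the highest of all 8, 2.55-fold apart, with the hydrogel libraries between them. The log2 fold change was 0.06 ± 0.24, with a 95% interval from -0.47 to 0.60, the widest of the 10. Dicer1, which cuts the hairpin to its mature length, was at 31.6, 35.99, 30.3 and 38.6 CPM in the hydrogel and 34.1, 27.0, 42.3 and 39.3 CPM in the antimiR-195 libraries, with the same 2 libraries at the ends. Its log2 fold change was 0.06 ± 0.15. Without antimiR-195 replicate 3 Xpo5 was at -0.16 and Dicer1 at -0.0287, and Xpo5 was also just below 0 without antimiR-195 replicate 4 (-0.0138) or hydrogel replicate 3 (-3.54e-04).

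Argonaute proteins hold the mature strand; AGO2 alone of the family is known to cut a fully paired target efficiently. Ago2 was at 29.1, 38.1, 25.02 and 39.7 CPM in the hydrogel and 28.2, 21.01, 48.1 and 35.8 CPM in the antimiR-195 libraries, 2.29-fold from lowest to highest. Ago1 was at 17.5, 23.5, 17.0 and 20.8 CPM in the hydrogel and 18.4, 13.7, 23.3 and 22.8 CPM in the antimiR-195 libraries. Ago3 was at 17.2, 18.3, 17.3 and 19.3 CPM and at 17.0, 14.9, 22.6 and 19.7 CPM. For all 3 the antimiR-195 libraries spread to both sides of the hydrogel libraries, except that hydrogel replicate 2 was the highest for Ago1. The log2 fold changes were 0.01 ± 0.24 for Ago2, -0.01 ± 0.18 for Ago1 and 0.04 ± 0.14 for Ago3. These signs too changed when single libraries were left out. Ago2 was at -0.22 without antimiR-195 replicate 3, -0.03 without antimiR-195 replicate 4, and when hydrogel replicate 1 or 3 was left out it was at -0.05 or -0.10. Ago3 was at -0.0691 without antimiR-195 replicate 3. Ago1 was at 0.12 without antimiR-195 replicate 2, 0.0856 without hydrogel replicate 2, 0.0136 without antimiR-195 replicate 1 and 0.0112 without hydrogel replicate 4. Ago4, the fourth family member, had the largest difference, -0.22 ± 0.18, with 10.9 ± 2.98 against 12.7 ± 1.30 CPM (SD, n = 4) and overlapping groups. Ago3 (126331704 to 126429556), Ago1 (126435012 to 126468583) and Ago4 (126489541 to 126533472) lie side by side on the minus strand of chromosome 4, with 5455 and 20957 bases between them, while Ago2 is on chromosome 15 at 73095844 to 73184935.

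By RPKM, Ago2 made up 30.6% to 40.7% of the summed level of the 4 Argonaute genes. Ago1 made up 26.5% to 31.8%, Ago4 17.8% to 27.4% and Ago3 12.02% to 15.6%. The share of Ago2 was 36.7 ± 3.03% with antimiR-195 and 35.8 ± 3.74% without (SD, n = 4), a difference below the spread (exact permutation p = 0.714, adjusted p = 0.8). Leaving out hydrogel replicate 3 turned it to -0.745 percentage points, and leaving out antimiR-195 replicate 3 turned it to -0.340.

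**Figure D2:**
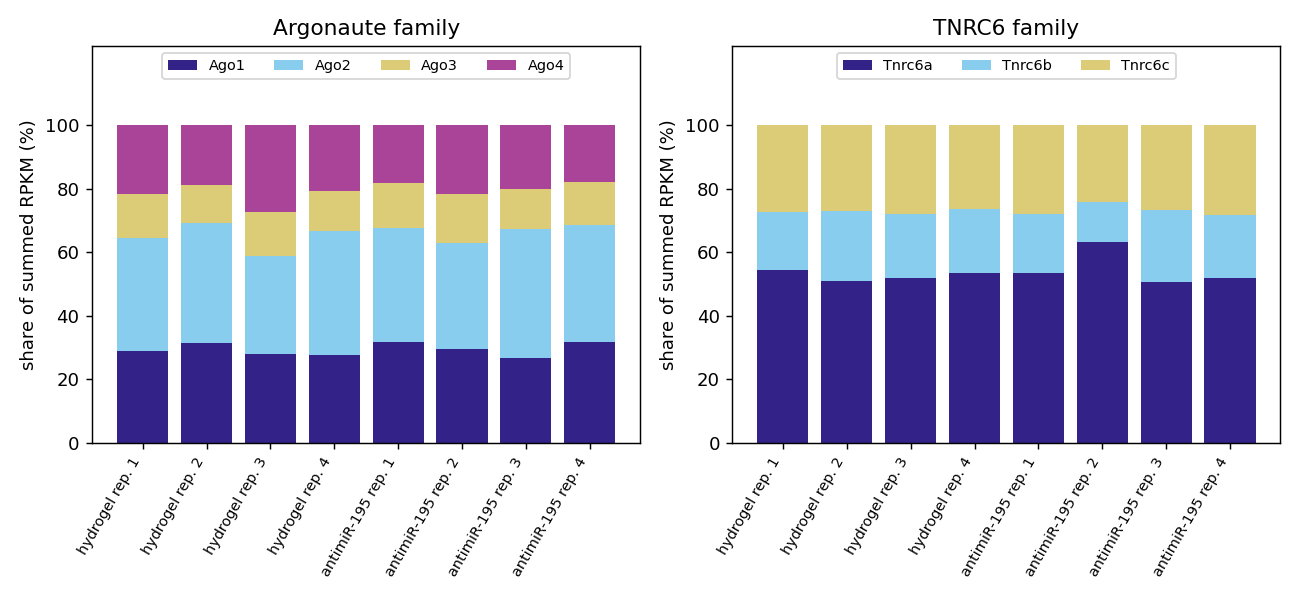
Share of each gene in the summed RPKM of its family (vertical axis, percent) in each of the 8 libraries, for the 4 Argonaute and the 3 TNRC6 genes. Ago2 takes 30.6% to 40.7% of the Argonaute level, and antimiR-195 replicate 2 stands out in the TNRC6 family with 63.3% Tnrc6a.

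TNRC6 proteins, also called GW182 proteins, link Argonaute to the enzymes that silence the target. Tnrc6a had the highest CPM of the 10, at 66.2, 67.9, 60.9 and 68.9 CPM in the hydrogel and 62.1, 81.8, 73.1 and 66.8 CPM in the antimiR-195 libraries. It differed from the other machinery genes in that antimiR-195 replicate 2, their lowest library, was its highest. The log2 fold change was 0.10 ± 0.11, or 0.02 without that library. Tnrc6b was at 32.6 CPM in antimiR-195 replicate 2, its lowest of 8, against 44.2 to 67.1 CPM elsewhere, and had a log2 fold change of -0.08 ± 0.20. Tnrc6c was at 0.03 ± 0.10. Tnrc6a therefore made up 63.3% of the summed TNRC6 RPKM in antimiR-195 replicate 2 and 50.6% to 54.3% in the other 7 libraries. The group means of that share were 54.8 ± 5.81% and 52.6 ± 1.50% (exact permutation p = 0.8, adjusted p = 0.8), and without that library the difference changed from 2.16 to -0.68 percentage points.

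**Figure D3:**
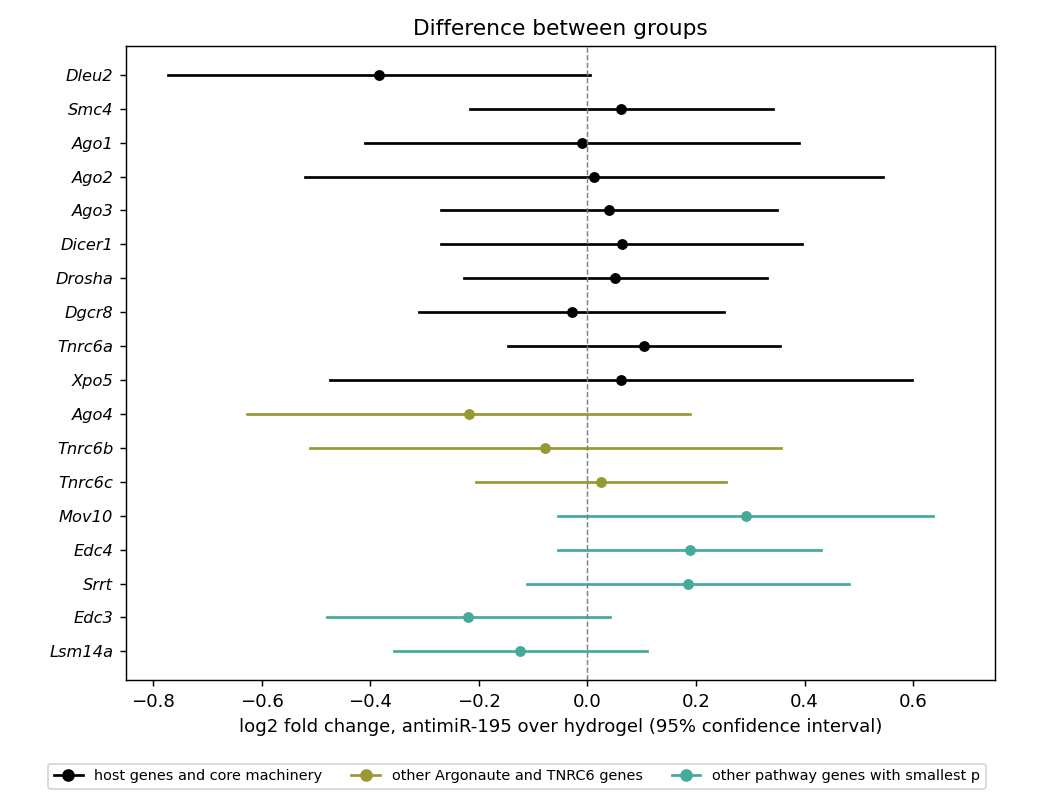
Log2 fold change of antimiR-195 over hydrogel with its 95% confidence interval (horizontal axis) for the 10 genes, the other Argonaute and TNRC6 genes and the other pathway genes with the smallest p. All intervals cross 0, and that of Dleu2 reaches from -0.77 to 0.01.

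Ordered by mean RPKM over the 8 libraries, the levels were 8.09 ± 0.927 for Tnrc6a, 7.58 ± 0.783 for Drosha, 4.86 ± 1.25 for Xpo5 and 4.86 ± 0.616 for Smc4. They were 3.54 ± 0.517 for Dicer1, 3.02 ± 0.804 for Ago2, 2.41 ± 0.417 for Ago1, 1.82 ± 0.169 for Dgcr8, 1.10 ± 0.133 for Ago3 and 0.603 ± 0.104 for Dleu2 (SD, n = 8). Tnrc6a and Drosha did not differ beyond their spread, with Tnrc6a higher in 5 of 8 libraries, nor did Xpo5 and Smc4, with Xpo5 higher in 4 of 8. Only the steps from Dgcr8 to Ago3 and from Ago3 to Dleu2 had ranges over the libraries that did not overlap. Within libraries more steps held. Drosha was above Xpo5, Smc4 above Dicer1, Ago2 above Ago1 and Ago1 above Dgcr8 in 8 of 8 libraries. Dicer1 was above Ago2 in 7 of 8. Dleu2 stood at the 11.8th and Tnrc6a at the 65.5th percentile of all genes tested by mean RPKM, the ends of the range of the 10.

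Over all 45 pairs of the 10 genes, r of log2 CPM across the libraries ran from -0.65 to 0.97. The highest values were among Ago1, Ago2, Ago3, Dicer1, Xpo5 and Drosha, a set picked here for its high r, with 0.73 to 0.97 over its 15 pairs. Dgcr8 was at 0.14 with Drosha, its partner, and at 0.46 to 0.55 with the other 5. Tnrc6a was at -0.42 to -0.04 with the other 7 machinery genes. AntimiR-195 replicate 2 was the highest library of Tnrc6a and the lowest of each of these 7, and r between them was not taken without it. Several of these genes also went with the length slope described above. Pearson's r between the log2 CPM of a gene and the slope, over 8 libraries and given as a description, was 0.98 for Xpo5, 0.98 for Ago2, 0.97 for Dicer1, 0.95 for Ago3 and 0.94 for Ago1. Without the 2 libraries of most extreme slope, antimiR-195 replicates 2 and 3, these were 0.93, 0.99, 0.93, 0.87 and 0.88. Drosha was at 0.78 and Dgcr8 at 0.58, and without those libraries at 0.40 and -0.22. Smc4 and Dleu2 were at 0.45 and 0.49, and without them at 0.45 and -0.02. Tnrc6a was at -0.24 over all 8 and at 0.96 without antimiR-195 replicate 2 alone. Of the 10 genes, 5 had an r of at least 0.9, while 8.10% of all genes tested did. In the length the authors' RPKM implies, Ago1, Dicer1, Ago2 and Ago3 have 8120, 9851, 10957 and 16571 bases, and Tnrc6a has 8471. Smc4, Drosha, Dleu2 and Dgcr8, with the lower r values, have 5032, 5934, 6141 and 7286 bases. Xpo5, with the highest r, is the shortest of the 10 at 3709 bases. Summed marker levels also went with some of the 10 genes, again as descriptions over 8 libraries. For the endothelial markers r was 0.74 to 0.84 with Ago1, Ago2, Ago3, Dicer1 and Xpo5, and for the cardiomyocyte markers it was -0.78 to -0.58 with the same genes and -0.69 with Smc4. With the fibroblast markers Smc4 and Tnrc6a were both at 0.70. With the markers of dividing cells Smc4 was at 0.53, Tnrc6a at 0.67 and Dleu2 at -0.58. With the B and T cell markers, which summed to at most 5.36 CPM, Dleu2 was at -0.70, Xpo5 at -0.72 and Tnrc6a at 0.71. The fibroblast, dividing-cell and B and T cell sums were all highest in antimiR-195 replicate 2. That library was also the highest of Tnrc6a and the lowest of Dleu2 and Xpo5, and the marker r values were not taken without it. The macrophage and leukocyte markers stayed between -0.53 and 0.46, and the atrial markers reached -0.62 with Smc4 and -0.61 with Dgcr8. The part of the slope and of these markers in the levels was not tested.

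**Figure D4:**
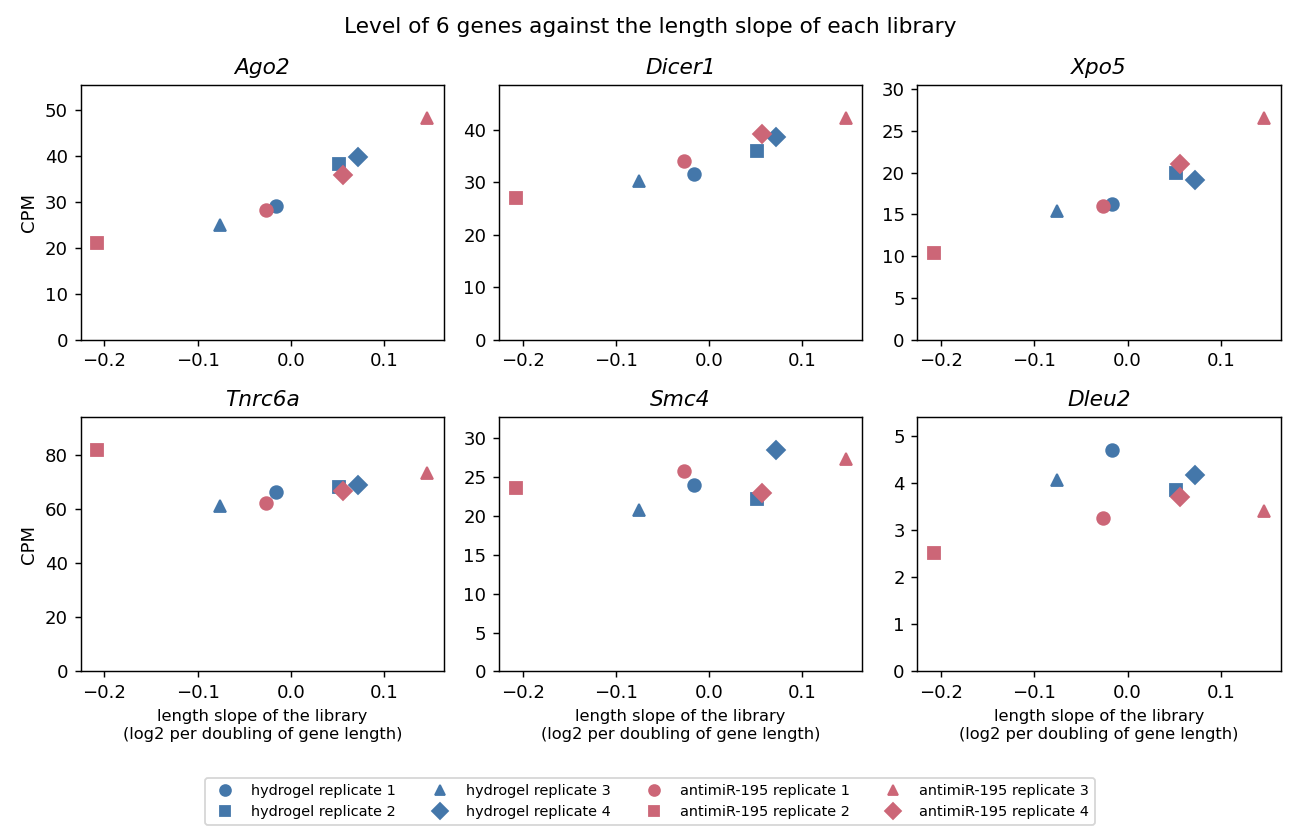
Level of 6 genes in CPM (vertical axes, from 0) against the length slope of each library (horizontal axis, log2 per doubling of gene length); blue points are hydrogel and red points antimiR-195 libraries. Ago2, Dicer1 and Xpo5 are highest in antimiR-195 replicate 3 and lowest in antimiR-195 replicate 2, where Tnrc6a is highest. Dleu2 is also lowest in antimiR-195 replicate 2 but highest in hydrogel replicate 1, and its groups do not overlap.

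Sites for the miR-15 family seed in the 3′ UTRs of the genes themselves were read from GENCODE M21, in the longest 3′ UTR of each. A site was TGCTGCT (pairing with seed bases 2 to 8) or GCTGCTA (bases 2 to 7 with an A opposite base 1), on the transcript's strand. Of the 9 protein-coding genes 4 had a site, 11 in all: Ago3 had 5 in 12745 bases, Ago2 3 in 11067, Ago1 2 in 4494 and Xpo5 1 in 1330. Dicer1, Drosha, Dgcr8, Tnrc6a and Smc4 had none in these windows. Of the genes tested with a 3′ UTR 28.5% had a site, and of those with at least 4000 bases of it 69.0%, so long UTRs such as those of the Argonautes mostly hold one. At least 3 sites were present in 3.11% and 17.4% of the same genes.

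A few of these sites are shown because all 3 Argonautes among the 10 carry the match that miR-195 would use on its targets (5′ to 3′ on the transcript; capitals mark the match).
Ago2 site at chr15:73105309-73105332, minus strand: gagccttctcttgtgTGCTGCTct
Ago2 site at chr15:73096440-73096463, minus strand: gatcttttatattcaTGCTGCTtc
Ago1 site at chr4:126437945-126437968, minus strand: caggctggggaatttTGCTGCTcc
Ago3 site at chr4:126333476-126333499, minus strand: gcttcagacaattgcTGCTGCTtt
Xpo5 site at chr17:46242671-46242694, plus strand: cccacttgagcccctTGCTGCTgg
The Ago3 match overlaps another that starts 3 bases before it, and the pair shares bases. The genes with sites had log2 fold changes of -0.01 (Ago1), 0.01 (Ago2), 0.04 (Ago3) and 0.06 (Xpo5). Those without had -0.03 (Dgcr8), 0.05 (Drosha), 0.06 (Dicer1), 0.06 (Smc4) and 0.10 (Tnrc6a). The 2 sets of values overlapped, and a match is a description of the sequence, not evidence that the site is used.

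The other genes of the pathway were taken as a list of 55, of which 51 were tested. Of these 28 were positive and 23 negative, with a median log2 fold change of 0.01, the same as over all genes, and 0 passed the threshold or had an unadjusted p under 0.05 in edgeR, against 0% and 1.27% of all genes. Gemin4, Trim71, Lin28a and Lin28b, of which the last pair blocks let-7 maturation in embryonic cells, had at most 4 counts in a library and were not tested. The values stayed within -0.22 and 0.29.

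Helicases, cap-binding and hairpin-binding proteins of the nucleus were at a median of 0.03 (6 of 9 positive), from Khsrp at -0.08 to Srrt at 0.18. Srrt, the ARS2 protein that connects capped transcripts to the Microprocessor, was at 67.8 ± 12.9 against 59.7 ± 1.58 CPM (SD, n = 4), with 86.3 CPM in antimiR-195 replicate 2 alone. Factors of export, dicing and loading had a median of 0.11, with 8 of 10 positive, where 52.4% of all genes tested were positive. This group was put together here and also holds Ipo8 (0.02) and Fmr1 (0.09), and a shift of the group was not tested. Mov10, an RNA helicase bound to Argonaute, had the highest value of the list at 0.29 ± 0.16, with 16.1 ± 1.82 against 13.2 ± 2.49 CPM and overlapping groups.

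Enzymes of microRNA tailing and turnover had a median of -0.07, with 6 of 7 negative, where 52.4% of all genes tested were positive. They ran from Xrn1, an RNA exonuclease, at -0.11 ± 0.43 to Snd1 at 0.01 ± 0.11. For each of the 6 negative genes antimiR-195 replicate 2 was the lowest library, with Xrn1 at 1.09 CPM there. Their values without that library are not given here, so the shared sign may rest on it, which was not tested. Deadenylation genes, most of them subunits of the CCR4-NOT complex, had a median of 0.01 with 8 of 14 positive, from Pan3 at -0.09 to Pabpc1 at 0.16. Decapping genes had a median of -0.02, with 4 of 8 positive. Edc4, a scaffold of the decapping complex, was at 0.19 ± 0.11 and Lsm14a, a translational repressor of P-bodies, at -0.12 ± 0.11. Edc3, an activator of decapping, was at 11.3, 12.5, 10.9 and 11.7 CPM in the hydrogel and 10.4, 9.79, 9.04 and 10.5 CPM in the antimiR-195 libraries. It was the only gene of the 51 whose groups did not overlap, 1.96% against 1.07% of all genes, and at -0.22 ± 0.12 it did not pass the threshold.

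**Figure D5:**
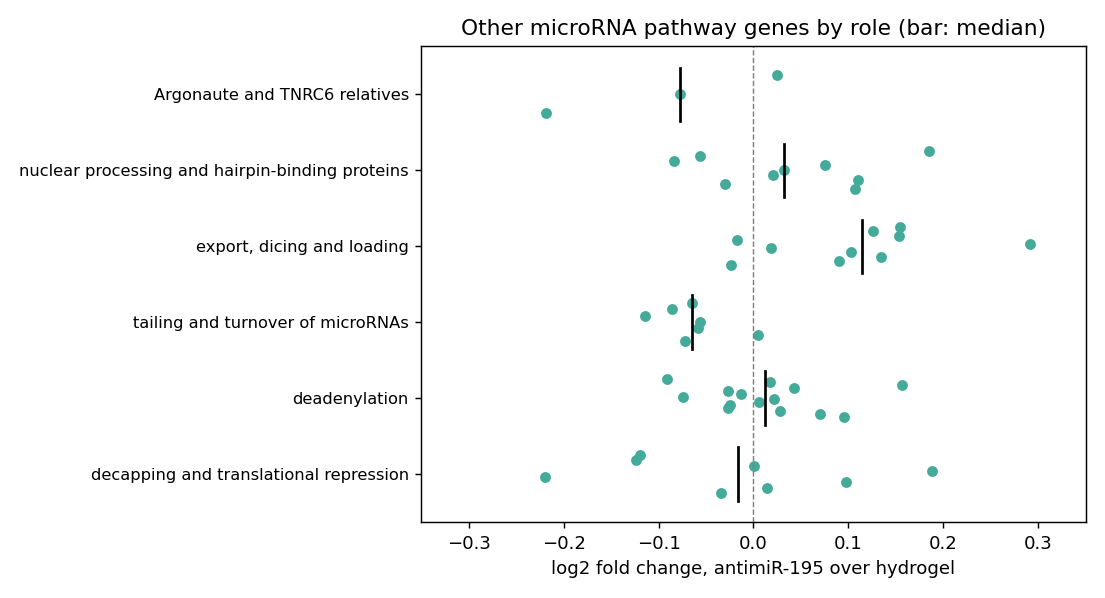
Log2 fold change of antimiR-195 over hydrogel (horizontal axis) for the 51 tested genes of the wider microRNA pathway, 1 point per gene, by role; black bars are medians. The medians lie between -0.08 and 0.11, and no gene lies beyond -0.22 or 0.29.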

How the data were processed

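Poly(A) RNA of left ventricle was measured in 8 libraries made with a stranded TruSeq kit, per the labels' protocols. The deposited values are HTSeq read counts for each Ensembl gene; STAR, HTSeq, DESeq and GRCm38 are named in the submitters' processing notes without versions. The deposited RPKM values imply 1 gene length per gene in all libraries. The series table and the library files differed in 0 cells. Gene names came from GENCODE M21 (36345 of 38293 identifiers). Reads outside genes were 6.38% to 7.55% and ambiguous reads 0.772% to 1.05% of uniquely aligned reads, and were left out.

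Groups came from the drug field. Genes passing filterByExpr (13972) were scaled with TMM factors of 0.953 to 1.04 and tested with edgeR 4.0.16 (quasi-likelihood, no covariates, R 4.3.3), with Benjamini-Hochberg adjustment over all of them. The code was tested on simulated data. Standard errors are from the same fit, and r values use log2 CPM with a prior count of 2. The 4 shares and ratios used RPKM and two-sided exact permutation tests. Alternatives used DESeq2 1.42.0, limma 3.58.1, other scaling and filters, RPKM, removal of the length trend, and all libraries but 1. Named genes were the 10, 3 pathway genes per direction by smallest p, family and condensin genes, and the 5 genes most like each host. The members and lists were chosen with earlier results of these data known.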

Additional observations from a re-analysis of the deposited data

Results flagged for a closer look

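One value stood apart within its group. In hydrogel replicate 3 the log2 RPKM of Smc4 exceeded the mean of its condensin partners by 1.90, while the other 3 hydrogel libraries lay between 1.48 and 1.54. The gap was 0.862 of the group's range, above Dixon's critical value for 4 samples. The check covered 28 groups of 4, the 10 genes and the 4 shares and ratios in each group, and chance marks about 1 group in 20. In that library Smc4 and its 4 partners were all at their lowest of 8, with Smc4 at 20.8, Ncapd2 at 25.7, Smc2 at 6.19, Ncaph at 2.82 and Ncapg at 2.54 CPM.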

How the results depend on the processing

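Over the 16 alternatives the count of genes past the threshold stayed at 0 and the smallest adjusted p of any of the 10 genes was 0.892 in edgeR; of 160 values of the 10 genes, 136 kept their direction and 24 did not. Dleu2 and Smc4 kept theirs throughout, Dleu2 at -0.46 to -0.29 and Smc4 at 0.00 to 0.15 with 1 library left out. With 1 library left out the ranges were -0.11 to 0.12 for Ago1, -0.22 to 0.17 for Ago2, -0.0691 to 0.12 for Ago3, -0.0287 to 0.17 for Dicer1, -0.0296 to 0.12 for Drosha, -0.0877 to 0.0208 for Dgcr8, 0.02 to 0.16 for Tnrc6a and -0.16 to 0.25 for Xpo5; for all but Dleu2, Smc4 and Tnrc6a the ends were reached without antimiR-195 replicates 3 and 2. Ago1 was at 0.13 with limma-voom and 0.00180 on log2(RPKM + 1). With the length trend removed Ago2 was at -0.0221 and Xpo5 at -0.00777. With antimiR-195 replicate 2 also left out, an alternative chosen after seeing the data, Ago1 was at 0.0499, Ago3 at -0.0135 and Tnrc6a at -0.0563; the cause was not tested. On log2(RPKM + 1) Dleu2 was at -0.14, since that scale understates low genes. The share of Ago2 differed by -0.745 to 2.10 and that of Tnrc6a by -0.683 to 3.55 percentage points with 1 library left out, the Dgcr8 to Drosha ratio by -0.18 to 0.0196 and the Smc4 difference by -0.31 to -0.15. Without the division by gene length the share of Ago2 differed by 0.555 and that of Tnrc6a by 2.40 percentage points; in the other two values, differences of log2 levels, gene length cancels between groups. No paired analysis was possible because replicates were numbered in accession order. Dleu2, with 46 to 89 counts per library, is the gene here most limited by depth.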

Other observations

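Genes whose log2 CPM went most closely with each host over the 8 libraries were listed as a description, with no test. For Dleu2 they were Hspb7, a small heat shock protein of heart muscle (r = 0.98), Tmem100 (0.96), Sema3g (0.96), Ssbp2 (0.95) and Lamp1, a lysosomal membrane protein (0.95). Their log2 fold changes between groups were -0.17, -0.43, -0.17, -0.22 and -0.13. They were picked for following Dleu2 in the same libraries, so sharing its direction is no separate evidence. For Smc4 they were Slc35b4 (0.98), the kinetochore scaffold Knl1 (0.96), the matrix proteoglycan Vcan (0.96), Atxn3 (0.95) and the maintenance DNA methyltransferase Dnmt1 (0.95), with log2 fold changes of 0.05, 0.23, 0.20, -0.00242 and 0.16. An r of at least 0.9 was reached by 30 genes with Dleu2 and 21 with Smc4, of 13972 tested. Without antimiR-195 replicate 2 the r of the 5 genes was 0.88 to 0.97 for Dleu2 and 0.95 to 0.98 for Smc4.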
